A study of Homo sapiens with 2 samples.

Results

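Nuclear receptors are transcription factors that bind DNA through zinc fingers, and many are switched by a small lipid-soluble ligand such as a steroid, a retinoid, thyroid hormone or a bile acid. Ligand-bound receptors recruit coactivators, which modify chromatin and contact the Mediator complex, whereas many receptors without ligand hold corepressors. In macrophages, receptors of this superfamily are known for restraining inflammatory genes and for control of lipid handling. The 38 genes described here are 30 nuclear receptors, without the vitamin D, retinoid X, liver X and peroxisome proliferator-activated receptors, and 8 coregulators, picked by gene symbol from 46865 loci in a table of read counts. All 38 symbols had a row.

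The PNU282987 library came from primitive macrophages, the embryonic kind of macrophage that gives rise to microglia, made over 30 days from wild-type human induced pluripotent stem cells of the line 1231A3 and labelled as exposed for 12 hours to 100 µM PNU282987, which fully activates the α7 type of nicotinic acetylcholine receptor. The Control library came from macrophages of that same line and differentiation, with no agonist named in its title or treatment field; both samples share 1 protocol text, and no vehicle is stated. For the PNU282987 library the title and the treatment field conflict, since the field speaks of amyloid β, and the title was followed. Each group was 1 library from 1 cell line, so nothing below could be checked against replicates and p-values were not computed. The study asked how gene expression in this microglia model differs after the agonist.

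The PNU282987 library held 36134391 reads and the Control library 39316475 reads. Counts were divided by totals scaled with TMM factors and are given as CPM, counts scaled to a common library size. Intervals are exact 95% intervals that cover counting error only. For a ratio, 0 reads were replaced by a floor of 3 reads, or 0.0823 CPM in PNU282987 and 0.0770 CPM in Control. That floor is not a 95% limit, since the exact upper limit for 0 reads was 0.101 CPM in PNU282987 and 0.0947 CPM in Control. All 14 macrophage markers were read, 2 of them (CD14 and ITGAM) higher in PNU282987 by the rule given below, with a summed level of 7658 CPM in PNU282987 and 8249 CPM in Control. Most of the 14 went the other way, with a median log2 ratio of PNU282987 to Control of -0.28. The interval of the ratio lay below 1 for 10 of them, against 33.6% of the loci compared below. It lay above 1 for 4, against 33.5%. Markers of other cells were also read: 8 mesenchymal markers summed to 3046 CPM in PNU282987 and 2706 CPM in Control, 5 granulocyte markers to 476 CPM in PNU282987 and 693 CPM in Control, 8 hepatocyte markers to 121 CPM in PNU282987 and 137 CPM in Control, 6 endothelial markers to 106 CPM in PNU282987 and 153 CPM in Control, and 6 pluripotent stem cell markers to 4.36 CPM in PNU282987 and 4.90 CPM in Control. The 6 neural markers summed to 24.3 CPM in PNU282987 and 29.7 CPM in Control, and 4 megakaryocyte markers to 3.98 CPM in PNU282987 and 4.29 CPM in Control. None of these other markers passed the rule, against 5.77% of the loci compared below. The stem cell genes POU5F1 and TDGF1 and the neural genes PAX6 and SOX1 had 0 reads in both libraries. In such bulk samples fewer cells of a type and less RNA per cell cannot be told apart. The part of these other cells in the differences below was not tested.

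Of the 38 genes, 36 had reads in at least 1 library and 26 reached a mean of 1 CPM over both libraries. A gene was called higher or lower where the ratio was at least 2-fold, its counting interval excluded 1 and the mean was at least 1 CPM. By that rule 3 of the 26 were higher in PNU282987 and none was lower. Among all 14269 loci compared, 2.96% were higher and 2.81% lower by the same rule, 5.77% in all. Within 1.5-fold lay 20 of the 26 genes and 82.4% of all loci compared. The 3 were the xenobiotic receptor NR1I2, the coactivator PPARGC1B and the corepressor NRIP1. The median log2 ratio of PNU282987 to Control was 0.12 over the 26 genes and -0.01 over all loci compared. A counting interval above 1 at any size was found for 13 of the 26 genes, against 33.5% of all loci compared, and an interval below 1 for 4, against 33.6%. A correction was also made for GC content and transcript length, by taking out the trend of the log2 ratio with both; it is called the GC and length correction below. After it these counts were 10 and 6. The corresponding shares of all loci were then 31.1% and 31.2%, and the median of the 26 genes was 0.05.

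**Figure D1:**
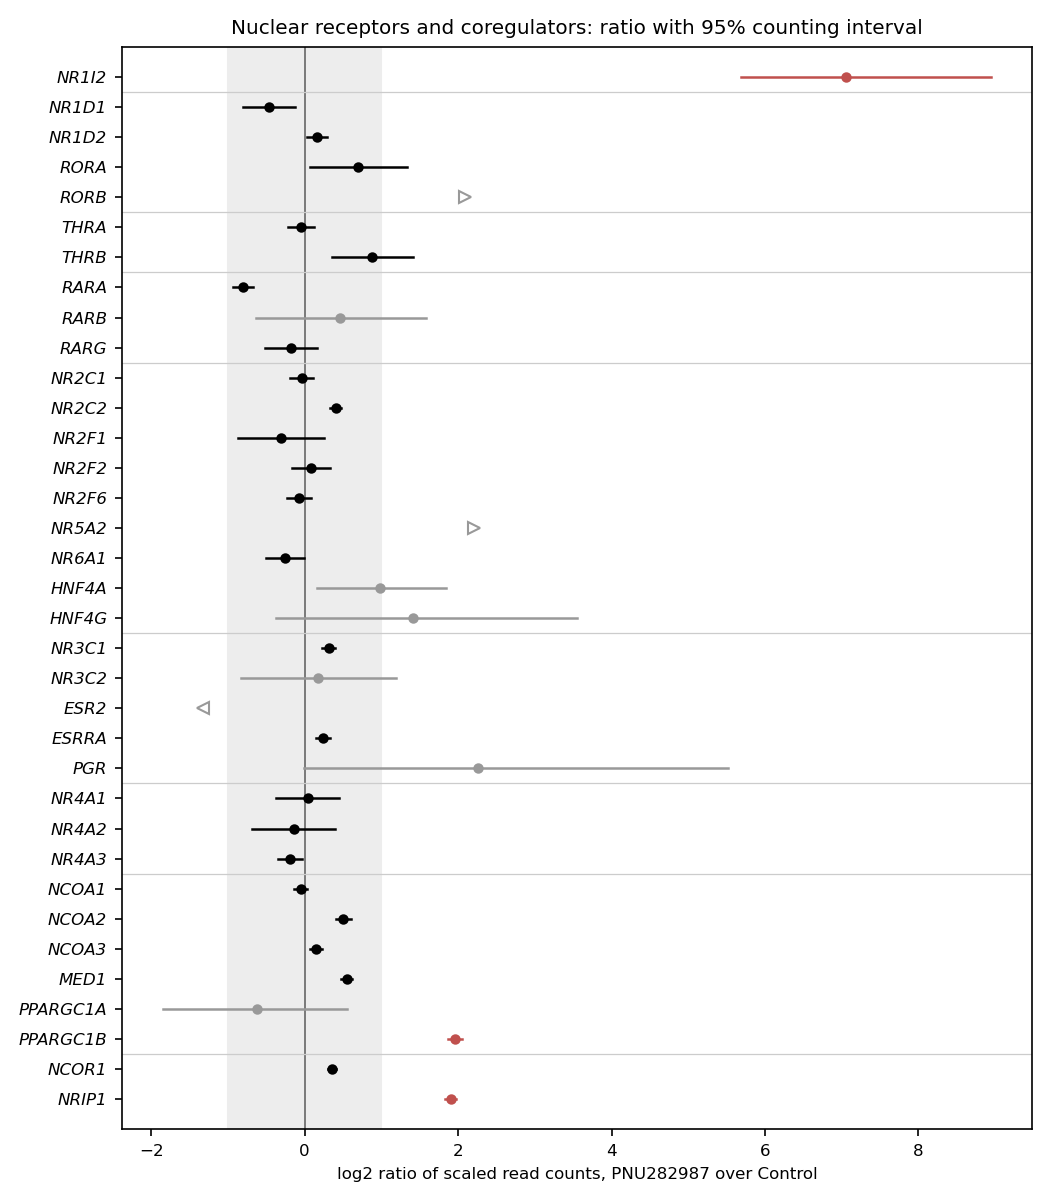
Log2 ratio of scaled read counts, PNU282987 over Control, for the 35 genes with a ratio or a value against the floor, in the order of their roles and with thin lines between roles. Points are ratios and bars exact 95% counting intervals, red genes are called higher, black genes were compared, and grey genes lay under a mean of 1 CPM. Open triangles are values against a floor of 3 reads, which are not interval limits, and the shaded band marks less than 2-fold. NR1I2 stands far to the right at 7.06, and PPARGC1B and NRIP1 lie just under 2.

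NR1I2 encodes the pregnane X receptor (PXR), a sensor of drugs, steroids and bile acids best known from liver and intestine. It had 499 reads in PNU282987 and 4 reads in Control, or 13.7 CPM (12.5 to 14.9) in PNU282987 and 0.103 CPM (0.0280 to 0.263) in Control. NR1I2 was thus nearly unread in Control, and in PNU282987 its level per transcript length ranked 16 among the 38 genes. It reached the mean of 1 CPM only through PNU282987. Its ratio was 133-fold, with a counting interval of 51.8-fold to 491-fold, and it ranked 10 among the 14269 loci by log2 ratio. The locus (chromosome 3, 119782101 to 119818487, plus strand, GRCh38) was represented by 5 transcripts in the table, 2 of them with an identifier of the transcript assembler. The nearest compared loci on either side did not share its difference. COX17, a mitochondrial copper chaperone 105 kb before it, had 23.2 CPM in PNU282987 and 22.7 CPM in Control. GSK3B, a kinase gene that begins 2.83 kb after it, had 108 CPM in PNU282987 and 94.7 CPM in Control. Neighbouring loci here and below were taken by position, after the values of the receptors and coregulators had been seen.

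Because NR1I2 is a liver gene, the 8 hepatocyte markers are set beside it. None passed the rule, against 5.77% of all loci compared, and the 5 with a mean of at least 1 CPM had a median log2 ratio of 0.14. The liver secretory gene ALB had 19 reads in PNU282987 and 0 reads in Control, and the endoderm factor FOXA2 16 reads in PNU282987 and 8 reads in Control. APOB, a lipoprotein gene of liver and gut, had 377 reads in PNU282987 and 227 in Control. AFP had 28.3 CPM in PNU282987 and 26.5 CPM in Control, and SERPINA1, which macrophages also make, 69.7 CPM in PNU282987 and 93.6 CPM in Control. The part of liver-type cells in the level of NR1I2 was not tested.

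The other receptors of bile acids and xenobiotics were at or below the floor. NR1I3, the constitutive androstane receptor (CAR), had 0 reads in PNU282987 and 3 in Control, and NR1H4, the bile acid receptor FXR, had 0 reads in both. Of 14 genes known as targets of PXR and CAR in hepatocytes, 9 had reads in at least 1 library, 7 had 0 reads in PNU282987 and 7 had 0 in Control, and 4 could be compared. Of these 4, 2 were higher by the rule and none lower, against 2.96% and 2.81% of all loci compared. ABCB1, the drug efflux pump P-glycoprotein, had 109 reads in PNU282987 and 53 in Control, a log2 ratio of 1.14 (0.65 to 1.64). ABCC2, an exporter of conjugated drugs, had 63 reads in PNU282987 and 32 in Control, a log2 ratio of 1.07 (0.44 to 1.73). After the GC and length correction neither passed 2-fold, with ABCB1 just under it at 0.999 and ABCC2 at 0.92. The Control level of ABCC2 was 0.821 CPM, so ABCC2 reached the mean of 1 CPM only through PNU282987, at 1.73 CPM. The count of 2 among 4 thus rests partly on that filter. ALAS1, the first enzyme of heme synthesis, had 143 CPM in PNU282987 and 160 CPM in Control, and the carboxylesterase CES2 62.4 CPM in PNU282987 and 68.3 CPM in Control. Of 6 listed FXR targets none reached a mean of 1 CPM.

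The promoter of NR1I2, from 250 bases before to 50 after the RefSeq start site, is shown with that of NRIP1, as the receptor called higher and the most expressed coregulator called higher. The window of PPARGC1B, also called higher, held none of the motifs below, had 3 CG pairs and a GC content of 46.0%, and is not printed. It lies at 149771690 to 149771989 of chromosome 5, inside the locus, which begins at 149730310. It thus covers an internal start site, whereas the windows of NR1I2 and NRIP1 lie where their locus begins. Each window was searched on both strands for AGGTCA, the hexamer that many nuclear receptors bind, for AGTTCA, a variant found in vitamin D receptor elements, and for TGACGTCA, the cyclic AMP response element. Capitals mark AGTTCA, which was found once in the NR1I2 window, 150 bases before the start site; the other searches gave no match in these 2 windows.
NR1I2 promoter, GRCh38.p14, chr3:119781851-119782150, plus strand: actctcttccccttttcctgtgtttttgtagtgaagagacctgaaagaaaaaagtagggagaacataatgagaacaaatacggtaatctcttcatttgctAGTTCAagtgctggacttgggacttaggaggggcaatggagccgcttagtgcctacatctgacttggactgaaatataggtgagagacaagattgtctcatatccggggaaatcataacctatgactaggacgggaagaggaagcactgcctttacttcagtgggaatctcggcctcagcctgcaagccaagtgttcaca
NRIP1 promoter, GRCh38.p14, chr21:15065887-15066186, minus strand: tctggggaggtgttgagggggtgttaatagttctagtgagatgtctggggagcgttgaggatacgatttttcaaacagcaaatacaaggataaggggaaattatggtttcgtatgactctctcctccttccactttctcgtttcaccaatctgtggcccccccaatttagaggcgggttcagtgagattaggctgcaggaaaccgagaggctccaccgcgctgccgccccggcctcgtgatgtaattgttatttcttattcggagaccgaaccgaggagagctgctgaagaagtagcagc
Of 27305 RefSeq promoter windows of this length, 13.9% held AGGTCA, 10.5% AGTTCA and 1.98% TGACGTCA. Of the 34 receptors and coregulators with a window, 3 held AGGTCA (NR1H4, NR5A2 and RARA), 6 held AGTTCA (NR1I2, NR2F1, NR2F2, NR3C1, NR3C2 and RARB) and 1 held TGACGTCA (NR6A1). These matches describe the letters only. The NR1I2 window had 5 CG pairs and a GC content of 45.3%, the NRIP1 window 14 CG pairs and 50.7%, and the median window 14 CG pairs and 58.3%.

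Of the 8 coregulators 7 were compared, 6 of these had an interval above 1, against 33.5% of all loci compared, and their median log2 ratio was 0.50. After the GC and length correction 5 of the 7 had an interval above 1, against 31.1% of all loci, and NCOA1 and NCOA3 an interval below 1, against 31.2%. Of the 30 receptors 19 were compared, of which 9 stood above equality and 10 below, with a median of -0.04. Of these 19, 7 had an interval above 1 and 4 an interval below 1, against 33.5% and 33.6% of all loci compared. These counts are set side by side without a test. The medians after that correction were 0.25 for the coregulators and 0.02 for the receptors. A wider list of 23 other coregulators, all compared, had none past the rule in either direction, against 5.77% of all loci compared. It had 15 above equality, against 7016 of all 14269 loci compared, and a median of 0.11. An interval above 1 was found for 13 of the 23 and an interval below 1 for 5, against 33.5% and 33.6% of all loci compared. In that list MED13, a kinase-module subunit of Mediator, was at 112 CPM in PNU282987 and 66.7 CPM in Control, and LCOR, a ligand-dependent corepressor, at 89.3 CPM in PNU282987 and 56.2 CPM in Control. The most read gene of the list, NCOA4, which also carries ferritin to autophagy, had 600 CPM in PNU282987 and 556 CPM in Control.

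PPARGC1B encodes PGC-1β, a coactivator of estrogen-related receptors that supports mitochondrial gene expression. It had 4590 reads in PNU282987 and 1265 in Control, or 126 CPM (122 to 130) in PNU282987 and 32.5 CPM (30.7 to 34.3) in Control. The intervals were far apart, the ratio was 3.88-fold (3.64 to 4.13), and the gene ranked 115 of 14269. Its locus (chromosome 5, 149730310 to 149857959, plus strand) overlaps MIR378A, with 2 reads in PNU282987 and 3 in Control, and the end of PDE6A, with 3 in PNU282987 and 0 in Control: the log2 ratio was 1.96 by its own reads and 1.95 with theirs added. Neither neighbour passed the rule, ARHGEF37 at 1.01 CPM in PNU282987 and 1.05 CPM in Control, and the sulfate transporter SLC26A2 at 56.1 CPM in PNU282987 and 44.0 CPM in Control, a log2 ratio of 0.35 (0.26 to 0.44). The related coactivator PPARGC1A, known from brown fat, muscle and liver, was scarcely read, with 11 reads in PNU282987 and 18 in Control, and an interval of its log2 ratio of -1.84 to 0.55.

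The receptor that PGC-1β is known to serve, ESRRA (estrogen-related receptor α), was the second most expressed of the 38 genes per transcript length in PNU282987. It had 58.2 CPM in PNU282987 and 49.3 CPM in Control, a log2 ratio of 0.24 (0.15 to 0.33). ESRRA overlaps the opposite-strand gene TRMT112 by 284 bases, and with the 1304 reads of TRMT112 in PNU282987 and 1902 in Control added the log2 ratio was -0.06. After the GC and length correction the log2 ratio of the reads of ESRRA itself was 0.48. By its own reads ESRRA thus stood above equality with and without that correction. The sum holds all reads of TRMT112, not only those over the shared 284 bases, and gives no direction for ESRRA alone. Among 10 genes known as targets of estrogen-related receptors and PGC-1 coactivators, 8 stood above equality, none was higher by the rule and 2 were lower. Of all 14269 loci compared, 7016 stood above equality, 2.96% were higher by the rule and 2.81% lower. IDH3A, a tricarboxylic acid cycle subunit, lay just under 2-fold at 85.8 CPM in PNU282987 and 43.4 CPM in Control. CYCS, cytochrome c, had 240 CPM in PNU282987 and 130 CPM in Control. The mitochondrial transcription factor TFAM had 47.1 CPM in PNU282987 and 31.0 CPM in Control. The 2 lower genes were PDK4, a kinase that restrains pyruvate oxidation, at 32.9 CPM in PNU282987 and 242 CPM in Control, and CPT1B, a muscle-type carnitine palmitoyltransferase, at 3.79 CPM in PNU282987 and 12.6 CPM in Control. CPT1B, with 138 reads in PNU282987 and 490 in Control, had a log2 ratio of -1.73, or -1.58 after the GC and length correction. It shares its position with other loci that held 2740 reads in PNU282987 and 3883 in Control. The sum with their reads had a log2 ratio of -0.51, to which those loci gave most reads.

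NRIP1 encodes RIP140, a corepressor that ligand-bound receptors recruit and that is known for repressing oxidative and lipid genes in fat and muscle. It had 7616 reads in PNU282987 and 2179 in Control, or 209 CPM (204 to 214) in PNU282987 and 55.9 CPM (53.6 to 58.3) in Control. Its ratio was 3.74-fold (3.56 to 3.92), its rank 122 of 14269, and it overlaps no other annotated locus (chromosome 21, 14961235 to 15065936, minus strand). NRIP1 was the most expressed of the 38 genes per transcript length in PNU282987, at 27.2 RPKM (CPM per kilobase of transcript), and ranked 10 in Control, at 7.29 RPKM. PPARGC1B ranked 5 in PNU282987, at 11.9 RPKM, and 16 in Control, at 3.07 RPKM. The nearest compared locus on the side of the 3′ end of NRIP1, the non-coding LINC02246 at a distance of 42.6 kb, had 8.48 CPM in PNU282987 and 3.59 CPM in Control and was also higher by the rule. USP25, a deubiquitinase gene 664 kb to the other side, had 55.0 CPM in PNU282987 and 42.6 CPM in Control.

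The remaining coregulators differed by less than 1.5-fold. MED1, the Mediator subunit that liganded receptors contact, had 102 CPM in PNU282987 and 70.0 CPM in Control, a log2 ratio of 0.55 (0.48 to 0.62). NCOA2, a p160 coactivator, had 50.6 CPM in PNU282987 and 35.6 CPM in Control, a log2 ratio of 0.50 (0.40 to 0.61). Both were higher beyond counting error, also after the GC and length correction, at 0.42 for MED1 and 0.25 for NCOA2. NCOR1, a corepressor that brings histone deacetylase 3 to unliganded receptors, had 169 CPM in PNU282987 and 132 CPM in Control, a log2 ratio of 0.36 that was 0.08 after that correction. The p160 coactivators NCOA3, at 78.0 CPM in PNU282987 and 70.2 CPM in Control, and NCOA1, at 55.0 CPM in PNU282987 and 57.0 CPM in Control, differed less. NCOA3 had a log2 ratio of 0.15, or -0.11 after that correction, so its direction differs between the calculations. NCOA1 had a log2 ratio of -0.05, or -0.27 after that correction.

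**Figure D2:**
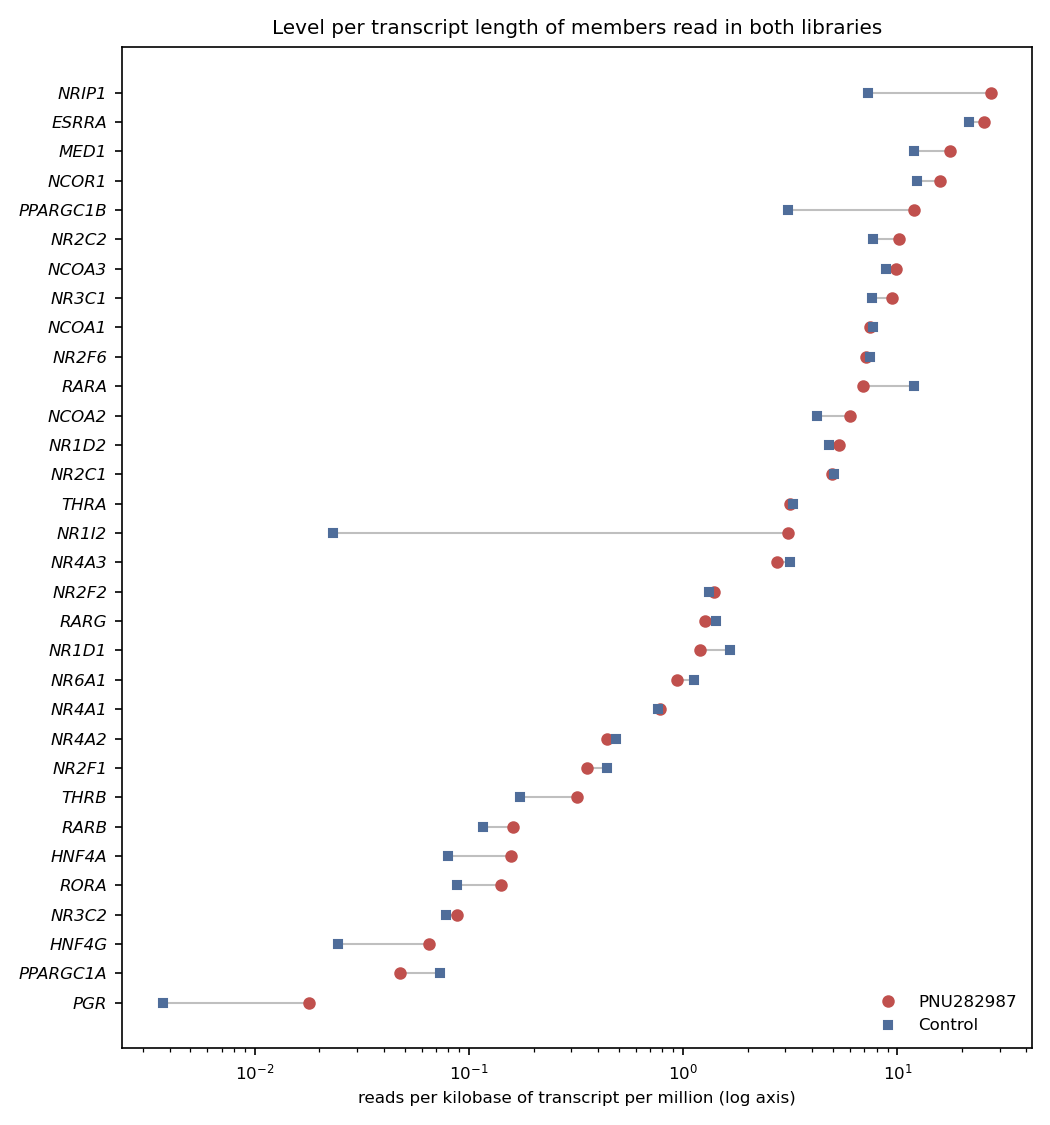
Level of the 32 genes read in both libraries, in RPKM by the longest coding GENCODE transcript on a log axis, ordered by the PNU282987 level. Circles are PNU282987, squares Control and lines join both libraries; NRIP1, PPARGC1B and NR1I2 show the wide gaps, with NR1I2 at 3.10 in PNU282987 and 0.023 in Control.

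Receptors of steroid hormones were represented mainly by the glucocorticoid receptor. NR3C1, which mediates the anti-inflammatory action of cortisol, had 68.6 CPM in PNU282987 and 55.2 CPM in Control, a log2 ratio of 0.31 (0.23 to 0.40). After the GC and length correction the log2 ratio was 0.02 (-0.07 to 0.10), which includes equality. NR3C2, the mineralocorticoid receptor, had 19 reads in PNU282987 and 18 in Control. The estrogen receptor ESR1 had 0 reads in both, ESR2 had 0 reads in PNU282987 and 8 in Control, 2.49-fold lower against the floor of 3 reads and with an upper limit of its ratio of 0.626, and the progesterone receptor PGR had 9 reads in PNU282987 and 2 in Control, with an interval of its ratio of 0.996 to 45.7. Of 13 glucocorticoid target genes none passed the rule in either direction, against 5.77% of all loci compared. The median of the log2 ratios was -0.03. The interval of the ratio lay above 1 for 5 of the 13 and below 1 for 6, against 33.5% and 33.6% of all loci compared. Above equality stood 6 of the 13, against 7016 of all 14269 loci compared. SGK1, a kinase of salt and stress signalling, had 291 CPM in PNU282987 and 346 CPM in Control, and the scavenger receptor CD163 1088 CPM in PNU282987 and 1055 CPM in Control. Among 7 estrogen target genes 4 were compared and none passed the rule, against 5.77% of all loci compared. IGFBP4, which binds insulin-like growth factors, had 110 CPM in PNU282987 and 62.2 CPM in Control. The transcription factor MYB had 4.77 CPM in PNU282987 and 7.54 CPM in Control. CYP19A1, aromatase, which makes estrogens from androgens, had 170 reads in PNU282987 and 25 in Control, a log2 ratio of 2.86 (2.25 to 3.53). It was the only gene past the rule among 11 genes of ligand supply, 7 of them compared, against 5.77% of all loci compared. The retinaldehyde dehydrogenase ALDH1A2, the gene of that list with the most reads, had 77.8 CPM in PNU282987 and 56.6 CPM in Control.

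None of the retinoic acid receptors passed the rule. RARA, the isotype of myeloid cells, had 762 reads in PNU282987 and 1416 in Control, or 20.9 CPM (19.4 to 22.4) in PNU282987 and 36.3 CPM (34.5 to 38.3) in Control. It was 1.74-fold lower, the lowest log2 ratio of the 26 genes compared at -0.80 (-0.93 to -0.67), yet short of the 2-fold rule. After the GC and length correction it was -0.59 (-0.72 to -0.46). Per transcript length RARA ranked 11 of 38 in PNU282987 and 4 in Control. The antisense locus RARA-AS1 had 14 reads in PNU282987 and 25 in Control, and adding all overlapping reads left RARA at -0.82. RARG, the isotype known from skin, had 3.73 CPM in PNU282987 and 4.21 CPM in Control, and RARB, itself a retinoic acid target, 18 reads in PNU282987 and 14 in Control, with an interval of its log2 ratio of -0.63 to 1.58. RARB overlaps the opposite-strand gene TOP2B by 28 bases, and TOP2B held 6245 reads in PNU282987 and 5548 in Control.

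Retinoic acid target genes went both ways. Of 10 listed, 6 were compared, 1 was higher and 1 lower by the rule, and the median log2 ratio was 0.48. Of all loci compared, 2.96% were higher and 2.81% lower. CRABP2, which carries retinoic acid to its receptors, had 22.7 CPM in PNU282987 and 5.75 CPM in Control, a log2 ratio of 1.98 (1.77 to 2.20). DHRS3, a reductase that limits retinoic acid formation, had 6.23 CPM in PNU282987 and 14.4 CPM in Control, a log2 ratio of -1.21 (-1.44 to -0.99). CYP26B1, which degrades retinoic acid, had 17 reads in PNU282987 and 51 in Control, and its mean lay under 1 CPM.

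No receptor of the circadian clock passed the rule. NR1D2, a heme-binding repressor (REV-ERBβ), had 28.1 CPM in PNU282987 and 25.1 CPM in Control, a log2 ratio of 0.16 (0.04 to 0.29), or -0.07 after the GC and length correction. NR1D1, its relative REV-ERBα, had 121 reads in PNU282987 and 178 in Control, a log2 ratio of -0.46 (-0.81 to -0.12). The end of NR1D1 (chromosome 17, 40092793 to 40100589, minus strand) overlaps that of the thyroid hormone receptor gene THRA on the other strand by 1075 bases. THRA had 562 reads in PNU282987 and 619 in Control, a log2 ratio of -0.04 (-0.21 to 0.12). Reads over the shared stretch could have been given to either gene, and the sum of both had a log2 ratio of -0.13. After that correction the interval of NR1D1 was -0.63 to 0.06, which includes equality. RORA, an activator at the sites REV-ERB proteins bind, had 56 reads in PNU282987 and 37 in Control, a log2 ratio of 0.69 (0.07 to 1.33), or 0.23 (-0.39 to 0.87) after that correction. RORB, a neural and retinal relative, had 12 reads in PNU282987 and 0 in Control, 4.28-fold higher against the floor, with a lower limit of its ratio of 2.97, and its mean lay under 1 CPM. None of 7 clock genes under REV-ERB and ROR control passed the rule, against 5.77% of all loci compared. ARNTL, which encodes BMAL1, had 19.5 CPM in PNU282987 and 18.6 CPM in Control, and CLOCK, the gene of the list with the most reads, 42.7 CPM in PNU282987 and 28.6 CPM in Control. The lowest ratios of the list were those of the clock output factors TEF, with 146 reads in PNU282987 and 297 in Control, and DBP, with 198 reads in PNU282987 and 355 in Control. DBP had a log2 ratio of -0.75, or -0.48 after the GC and length correction. It shares its position with other loci that held 634 reads in PNU282987 and 716 in Control. The sum with their reads had a log2 ratio of -0.27, to which those loci gave most reads.

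The second thyroid hormone receptor, THRB, was the receptor next to NR1I2 in log2 ratio among those compared. It had 86 reads in PNU282987 and 50 in Control, 1.84-fold higher with an interval of 1.28-fold to 2.66-fold. Its log2 ratio of 0.88 was 0.65 (0.13 to 1.18) after that correction. Of 5 thyroid hormone targets 2 were compared and none passed the rule, against 5.77% of all loci compared. KLF9, which glucocorticoids also induce, had 5.65 CPM in PNU282987 and 3.31 CPM in Control, and BCL3 35.4 CPM in PNU282987 and 38.3 CPM in Control.

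The NR4A receptors, immediate early genes without a known need for ligand, did not differ by 2-fold at 12 hours. NR4A3 had 15.7 CPM in PNU282987 and 17.9 CPM in Control, a log2 ratio of -0.19 (-0.35 to -0.03). NR4A1 had 100 reads in PNU282987 and 104 in Control, a log2 ratio of 0.04 (-0.37 to 0.45). NR4A2 had 56 reads in PNU282987 and 66 in Control, a log2 ratio of -0.14 (-0.68 to 0.39). For NR4A1 and NR4A2 no difference was detectable at this depth, with intervals of the ratio of 0.773 to 1.37 and 0.624 to 1.31.

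None of the orphan receptors passed the rule. NR2C2, the testicular receptor TR4, was the most expressed receptor after ESRRA per transcript length in PNU282987, with 82.5 CPM there and 62.4 CPM in Control. Its log2 ratio of 0.40 (0.33 to 0.48) was 0.31 with the reads of the overlapping FGD5-AS1 and MRPS25 added and 0.17 after the GC and length correction, above equality each time. NR2C1, the paralogous TR2, had 20.4 CPM in PNU282987 and 21.0 CPM in Control. NR2F6, a repressor known from T cells, had 17.1 CPM in PNU282987 and 18.0 CPM in Control. NR6A1, the germ cell nuclear factor that silences POU5F1 as stem cells differentiate, had 6.58 CPM in PNU282987 and 7.88 CPM in Control, and POU5F1 itself had 0 reads in both. NR2F2, a factor of mesenchymal and venous cells, had 267 reads in PNU282987 and 270 in Control, a log2 ratio of 0.08 (-0.17 to 0.33). NR2F1, its relative in neural crest and mesenchyme, had 50 reads in PNU282987 and 66 in Control, a log2 ratio of -0.30 (-0.86 to 0.25). The 8 mesenchymal markers had a median log2 ratio of 0.11 with none past the rule, against 5.77% of all loci compared.

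NR5A2, HNF4A and HNF4G were at the margin of detection. NR5A2, a receptor of liver and pluripotent cells, had 13 reads in PNU282987 and 0 in Control, 4.63-fold higher against the floor, with a lower limit of its ratio of 3.26. HNF4A, a master regulator of hepatocytes, had 37 reads in PNU282987 and 20 in Control, 1.98-fold with an interval of 1.12-fold to 3.60-fold. HNF4G had 10 reads in PNU282987 and 4 in Control, with an interval of its ratio of 0.771 to 11.7. All 3 had a mean under 1 CPM and so were outside the rule.

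**Figure D3:**
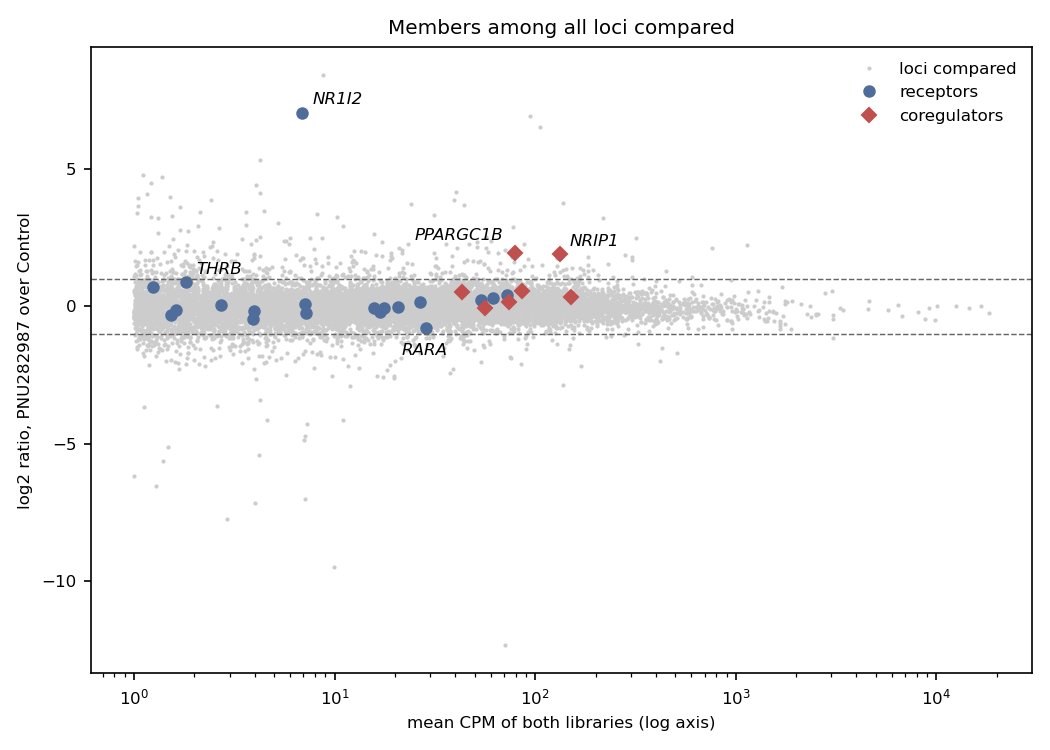
Log2 ratio of PNU282987 over Control against the mean CPM of both libraries on a log axis, for compared loci with reads in both. Grey dots are loci, blue circles receptors, red diamonds coregulators and dashed lines mark 2-fold; most of the 26 genes lie within the grey band, with NR1I2, PPARGC1B and NRIP1 above it and RARA at its lower side.

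The 18 receptors of the superfamily that are not among the 30 give the setting. Of these 18, 8 reached a mean of 1 CPM, and their median log2 ratio was -0.08. None of the 8 passed the rule in either direction, against 5.77% of all loci compared. The most read were RXRA, the shared dimer partner of many receptors, at 171 CPM in PNU282987 and 211 CPM in Control, and PPARD at 62.0 CPM in PNU282987 and 61.0 CPM in Control. Of all 48 human nuclear receptors 41 had reads and 27 reached a mean of 1 CPM. NR1I2 was the only one of these 27 past the rule, against 5.77% of all loci compared.

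**Figure D4:**
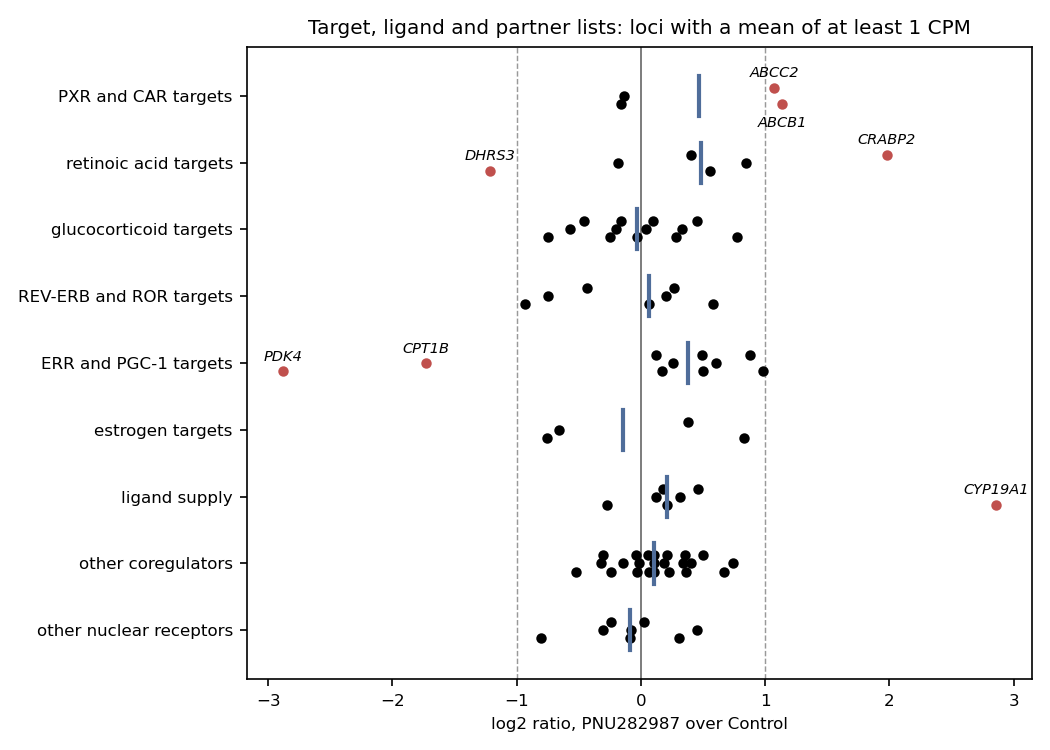
Log2 ratio of PNU282987 over Control for genes of the target, ligand and partner lists with a mean of at least 1 CPM. Points are genes, red and named where past the rule, blue bars list medians and dashed lines 2-fold; the PXR, retinoic acid, PGC-1 and ligand supply lists hold the named genes, and the glucocorticoid, REV-ERB and estrogen lists hold none.

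Of the 38 genes 29 overlap another annotated locus, and for 15 those loci held reads. Adding these reads left the same 3 genes past the rule. ESR1, with 0 reads of its own, shares 7933 bases with SYNE1, which had 3880 reads in PNU282987 and 1800 in Control. NR1I3 shares 1078 bases with TOMM40L, at 1104 reads in PNU282987 and 986 in Control.

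**Figure D5:**
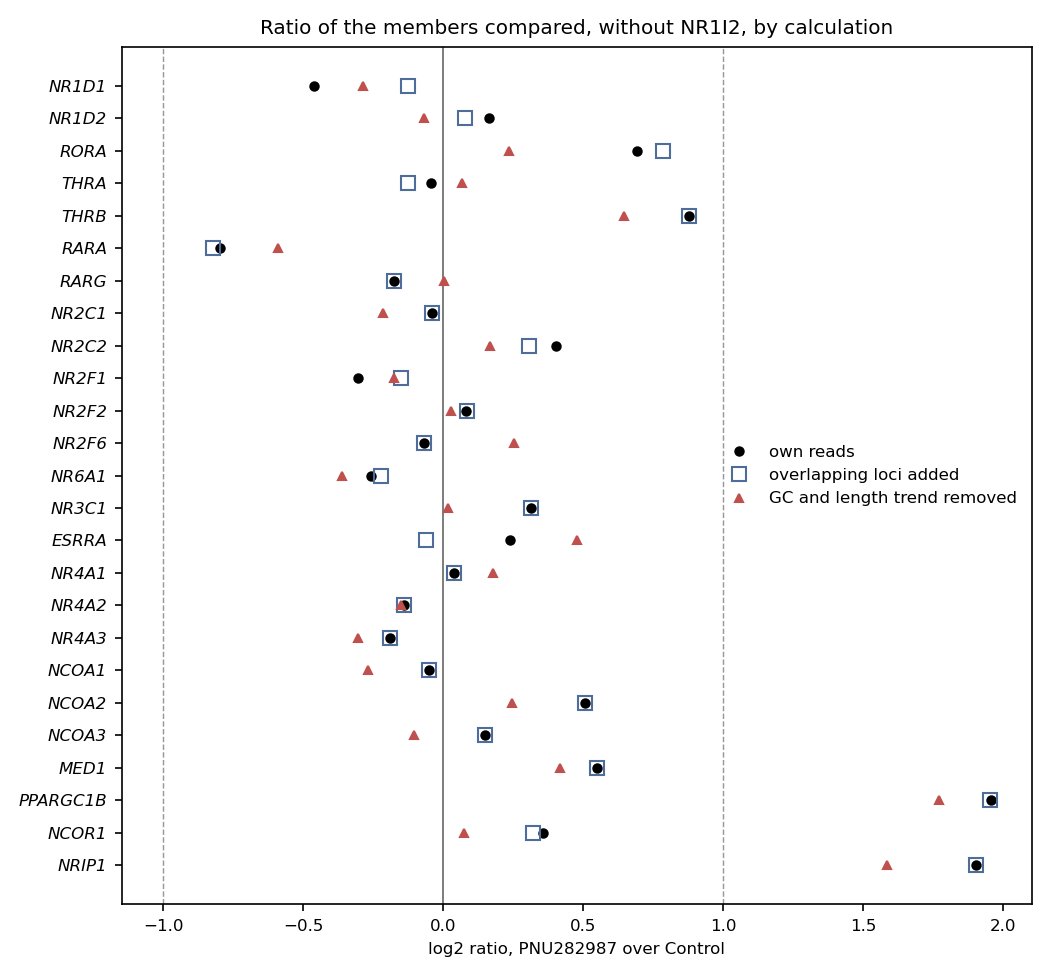
Log2 ratio of PNU282987 over Control for the 25 compared genes other than NR1I2, by own reads (black), with the reads of overlapping loci added (open squares) and after the GC and length correction (red triangles); dashed lines mark 2-fold. PPARGC1B and NRIP1 stay beyond 2-fold in all 3 calculations, while ESRRA, NR1D2, THRA, RARG, NR2F6 and NCOA3 change side of 0 in at least 1. ESRRA does so only where all reads of the overlapping TRMT112 are added.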

How the data were processed

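Whole read counts per locus were deposited by the authors without normalization, per the file headers. The submitters' processing notes name the build GRCh38 and the tools HISAT2 2.1.0, StringTie 2.1.3b, Trimmomatic 0.38, FastQC 0.11.7 and edgeR. Settings, use of strand and the counting of mates are not given there. More loci held exactly 2 reads than exactly 1 (979 and 817 in PNU282987, 958 and 818 in Control), so reads may not be independent and intervals may be too narrow. A stranded mRNA kit was used, per the labels' protocols.

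Totals were scaled with TMM factors of 1.01 for PNU282987 and 0.991 for Control (edgeR 4.0.16, R 4.3.3). Ratios carry exact Clopper-Pearson intervals and levels exact Poisson intervals, at 95% (Python 3.11.15, SciPy 1.17.1). Reads per kilobase used the longest coding GENCODE 29 transcript. Positions, symbols and promoters come from RefSeq (GRCh38.p14), which placed 44560 loci. For 1 list gene, BMAL1, the deposited counts carried the older symbol ARNTL. For 92.3% of the loci compared a transcript gave GC content and length, and the trend with both was fitted by quadratic regression. The rule of size was tested on simulated counts. The genes described, the lists and the rule were chosen with earlier results of these data known. Named genes are all 38, plus from each list up to 4 past the rule or, where fewer than 2 passed, those with the most reads. MED13, LCOR, IDH3A, CYCS, TFAM, ALAS1, CES2, CYP26B1, ARNTL, TEF, DBP, ALB, FOXA2, APOB, POU5F1, TDGF1, PAX6, SOX1 and the neighbouring loci were picked after their values were seen.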

Additional observations from a re-analysis of the deposited data

How the results depend on the processing

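The same 3 genes, NR1I2, PPARGC1B and NRIP1, were higher by the rule with library totals, upper quartile scaling, DESeq2 1.42.0 size factors, counts halved, overlapping reads added, and the GC and length correction, and none was lower. In these settings 2.38% to 3.23% of all loci compared were higher and 2.15% to 2.85% lower. A mean of at least 10 CPM left 2 of 16, without NR1I2, against 1.86% of all loci in that setting. With no filter beyond 10 reads in both libraries together 5 of 34 were higher, NR5A2 and RORB being added. This looser filter called 5.04% of all loci higher and 4.66% lower. A 1.5-fold threshold gave 5 of 26 higher, with RORA and THRB, and 1 lower, RARA. It called 8.77% of all loci higher and 8.66% lower. A 4-fold threshold left 1 higher, NR1I2, against 0.743% of all loci. Of the 7 compared genes that overlap no other locus 1 was higher, NRIP1, against 2.69% of all such loci. The median log2 ratio of these 7 was -0.069. Across the other settings the median of the genes compared lay between 0.05 and 0.21. No called gene changed direction. After the GC and length correction 14 single ratios moved outside their counting interval, and the cause was not tested. Halving the counts moved the values of RORB and NR5A2 against the floor to a log2 value of 1.10 and that of ESR2 to -0.32. No paired analysis was possible because there is a single library in each group, which also means that none could be left out. Depth limits the 12 genes under a mean of 1 CPM, whose intervals are wide.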
